A study of Mus musculus with 8 samples.

Results

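The comparison described here sets Ly6Chigh against Ly6Clow monocytes (MCs) within streptozotocin (STZ) mice, the T1DM group of the study. It uses 2 of the 8 samples analysed, 1 library of each subset, and covers all 16486 genes of the deposited expression data. STZ is a toxin that enters and destroys pancreatic beta cells, the source of insulin. Male C57/BL6 mice received it by intraperitoneal injection at 50 mg/kg on each of 5 days from 8 weeks of age, ate normal chow, and gave blood at 20 to 22 weeks of age. The subsets were sorted from blood as CD11b+Ly6G- cells with high or low Ly6C, 100000 cells per subset. Material of 5 mice was pooled, so a library stands for a pool and not for 1 animal. By the paper's account both subsets were sorted from blood pooled within a group, so the 2 T1DM libraries may come from the same mice. By the paper's account pooled RNA was sequenced in duplicate, so 2 libraries of the same subset and group may be repeats of 1 pool. The other 6 samples are 2 Ly6Chigh and 2 Ly6Clow libraries of untreated C57/BL6 mice (CT) and 1 library of each subset from db/db mice (T2DM), which carry a homozygous mutation of the leptin receptor. CT RNA was sequenced on the NextSeq 500 and T1DM and T2DM RNA on the HiSeq 4000, so within T1DM both subsets come from the same kind of sequencer, while T1DM and CT cannot be told apart from their sequencers. With 1 library a side there is no replicate check of any T1DM difference and no test of it.

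Mouse blood holds classical MCs, which carry much Ly6C and the chemokine receptor CCR2, leave the bone marrow, and enter inflamed tissue. Nonclassical MCs carry little Ly6C, depend on the nuclear receptor NR4A1, and patrol the inner wall of vessels. The first kind can convert into the second in the blood, so the subsets are stages of one lineage with different tasks.

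In what follows a level is the deposited log2 value of a gene in 1 library, and a difference is the Ly6Chigh level minus the Ly6Clow level on that log2 scale. A gene counts as past 2-fold where its difference is above 1 or below -1. The same difference in CT mice is given as the range over the 4 pairings of 2 Ly6Chigh with 2 Ly6Clow libraries, which are independent of the T1DM libraries, and T2DM has a single value. Since the 2 CT libraries of a subset may be repeats of 1 pool, this range may hold technical spread only. A T1DM value outside it can still lie within the spread between animals. Precision depends on level. The CT Ly6Chigh replicates differed by more than 1 for 37.7% of the 3959 genes with a mean level under 1, but for 0.325% of the 5228 genes with a mean level of at least 5. The corresponding shares in the CT Ly6Clow replicates were 28.6% and 0.478%. Values of genes under a level of 3 in both T1DM libraries are therefore given with their levels and carry little weight.

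In T1DM MCs the sorting antigen separated the libraries. Ly6c2, which encodes Ly6C2, had a level of 8.72 in the Ly6Chigh and 3.20 in the Ly6Clow library, a difference of 5.53, inside the CT range of 4.49 to 5.92. Ly6c1, the neighbouring gene for Ly6C1, had levels of 5.22 and 0.52. Both were high in the Ly6Chigh and low in the Ly6Clow library, although 46.8% of the 31-base sequences of Ly6c1 and 23.7% of those of Ly6c2 also stand in other genes, so the split of reads between them is uncertain.

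Of 12 classical MC markers, 10 were past 2-fold higher in T1DM Ly6Chigh MCs and none lower, with a median difference of 3.77. Over all genes 11.0% were past 2-fold higher and 16.8% lower, and the median difference was -0.04. The past 2-fold counts of every list below are to be read beside these shares. Ccr2, the receptor that draws classical MCs out of the marrow, had levels of 10.83 and 7.77. Vcan, the matrix proteoglycan versican, had levels of 9.23 and 3.34, and Fn1, fibronectin, 12.99 and 8.87. F13a1, the A chain of coagulation factor XIII, had levels of 10.33 and 5.68, and Mmp8, a collagenase, 6.99 and 1.37. These 5 genes were far higher in the Ly6Chigh library. Clec4e, the receptor Mincle, stayed under 2-fold, with a difference of 0.17. The T1DM difference lay inside the CT range for 4 of the 12 markers, above it for 5 and below it for 3. Over all genes 31.2% lay above and 29.8% below.

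Nonclassical MC markers were lower in T1DM Ly6Chigh MCs, and by more than in CT mice. Of 15 markers, 10 were past 2-fold lower and none higher, with a median difference of -1.49, against -0.69 in CT and -1.97 in T2DM. The T1DM difference lay below all 4 CT differences for 14 of the 15. Over all genes that was so for 29.8%, and T1DM lay above all 4 for 31.2%. Nr4a1, the factor on which Ly6Clow MCs depend, had levels of 7.34 and 8.21 in T1DM, a difference of -0.88, while the CT range was 0.05 to 0.31. In the CT libraries its Ly6Chigh levels were 8.11 and 8.08 and its Ly6Clow levels 7.80 and 8.02. T1DM Ly6Chigh MCs thus had the lowest and T1DM Ly6Clow MCs the highest Nr4a1 level of the 6 T1DM and CT libraries. Ace, angiotensin-converting enzyme, had a T1DM difference of -1.49 against -0.53 to -0.33 in CT. Treml4, a receptor of the TREM family, had -2.15 against -0.81 to -0.58. Spn, which encodes the sialoglycoprotein CD43 used to mark this subset, had -1.49 against -0.71 to -0.70. Pecam1, the endothelial and leukocyte adhesion molecule CD31, comes from the list of integrins and adhesion genes and had -1.88 against -0.27 to -0.24. All of these lay beyond the CT range on the same side. So did T2DM, with -1.25 for Nr4a1, -2.59 for Ace, -1.56 for Treml4, -1.83 for Spn and -2.66 for Pecam1. The wider difference was thus not particular to T1DM. The exception was Cx3cr1, the fractalkine receptor, whose level was higher in Ly6Chigh MCs, 8.63 against 7.72, with a difference of 0.91 next to a CT range of 0.81 to 0.85.

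**Figure D1:**
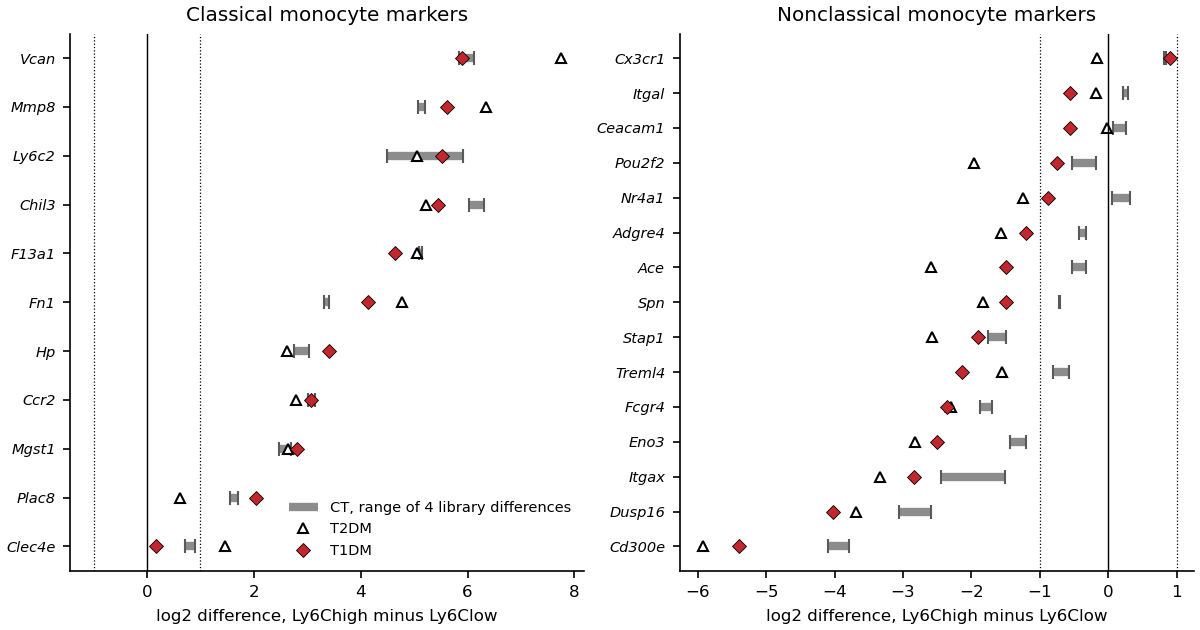
Log2 difference of Ly6Chigh minus Ly6Clow MCs (horizontal axis) for 11 of the 12 classical and all 15 nonclassical MC markers (rows), with T1DM as red diamonds, T2DM as open triangles, and the range of the 4 CT library differences as grey bars; dotted lines mark a difference of 1 either way. For 14 of 15 nonclassical markers the T1DM diamond lies left of the CT bar, and for Cx3cr1 it lies to the right.

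Markers shared by both MC subsets were present in both libraries. Csf1r, the receptor for the growth factor M-CSF, had levels of 10.64 and 9.83. Lyz2, lysozyme, had 15.23 and 12.59, Tyrobp, the adaptor DAP12, 9.92 and 8.36, and Fcgr1, the high-affinity IgG receptor CD64, 6.30 and 3.20. Of 9 such markers, 4 were past 2-fold higher in Ly6Chigh MCs and all 9 differences were positive, with a median of 0.92 against 1.06 in CT.

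Markers of B and NK cells were lower in the Ly6Chigh library, and those of T cells only in part. Of 20 B cell markers, 19 were past 2-fold lower, and the log2 of their summed linear values was 9.70 in the Ly6Chigh and 12.94 in the Ly6Clow library. The same sum was 9.16 to 9.19 in CT Ly6Chigh and 12.76 in both CT Ly6Clow libraries. All 16 natural killer (NK) cell markers were past 2-fold lower, with a median of -2.95 and summed levels of 7.54 and 10.53 against 7.14 to 7.23 and 9.92 to 9.95 in CT. Of 20 T cell markers, 9 were past 2-fold lower, and 13 of the 20 were under a level of 3 in both T1DM libraries, among them the defining Cd3d, Cd3e and Cd3g. The median difference of the T cell list was -0.74 against -0.85 in CT, and 11 of the 20 were under 2-fold. Its summed levels were 6.03 and 8.43. Cd2, with levels of 3.39 and 7.52, was by far the highest member in the Ly6Clow library, so the sum there depends much on it. In bulk RNA, fewer cells of a type and less RNA per cell cannot be told apart, and the part of lymphocyte RNA in the lower genes described below was not tested. For dendritic cell markers 4 of 9 were past 2-fold lower and 1 higher, with summed levels of 7.80 and 8.32. The plasmacytoid list had 3 of 6 lower and 1 higher, and its defining gene Siglech had levels of 0.31 and 0.70.

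Markers of the granulocyte classes differed in opposite directions. Of the 11 neutrophil markers measured, 9 were past 2-fold higher and 1 lower, with a median difference of 2.23 against -0.11 in CT and 0.12 in T2DM, but 5 of them were under a level of 3 in both T1DM libraries. S100a9, a calprotectin subunit, had levels of 3.55 and 0.04, S100a8, its partner, 2.49 and -0.30, and Ltf, lactoferrin, 2.71 and -2.24. In CT mice these 3 genes had the lower level in Ly6Chigh MCs in all 4 pairings. The summed neutrophil level of 9.03 and 7.45 was close to the CT sums of 9.02 to 9.03 and 7.43 to 7.49. Csf3r, with levels of 8.66 and 7.05, was by far the highest marker in both T1DM libraries. The sum thus mostly follows Csf3r and says little about the other markers. Ly6g, against which the gate selects, was not analysed here. Of 9 eosinophil and basophil markers, 7 were past 2-fold lower in Ly6Chigh MCs with a median of -3.51 against -0.17 in CT, and 7 were under a level of 3 in both libraries. Mcpt8, a basophil protease, had levels of -2.56 and 2.10, and Fcer1a, the IgE receptor chain, -2.05 and 2.66. The T1DM Ly6Clow library held more of this list, with a summed level of 6.80 against 6.15 to 6.27 in CT, and the T2DM Ly6Clow library more again, with 7.43. In T2DM all 9 markers were past 2-fold lower in Ly6Chigh MCs, with a median of -4.25.

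Platelet and erythroid RNA was present in both T1DM libraries at like levels. None of 11 platelet and none of 8 erythroid markers was past 2-fold in either direction. Ppbp, a platelet chemokine, had levels of 8.98 and 9.17, and Hbb-bs, a beta globin, 14.20 and 13.93. The summed platelet level was 10.12 in the T1DM Ly6Clow and slightly lower in the Ly6Chigh library, and both lay above the CT range of 9.02 to 9.39. The T2DM sums, 8.14 in Ly6Chigh and 8.40 in Ly6Clow MCs, lay below that range. Summed erythroid levels were 15.22 and 14.94 in T1DM, against 14.32 to 14.56 in CT and lower sums of 14.02 and 14.01 in T2DM. Of the 31-base sequences of Hbb-bs, 54.4% stand in other genes. Macrophage markers had 4 of 10 past 2-fold lower and 1 higher. C1qa, C1qb and C1qc, the chains of complement C1q, had T1DM differences of -3.55, -3.03 and -2.37, each below its CT range, and their levels in the Ly6Clow library were 1.64, 4.38 and 3.46. C1qa, at -1.91 in the Ly6Chigh library, was under a level of 3 in both.

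**Figure D2:**
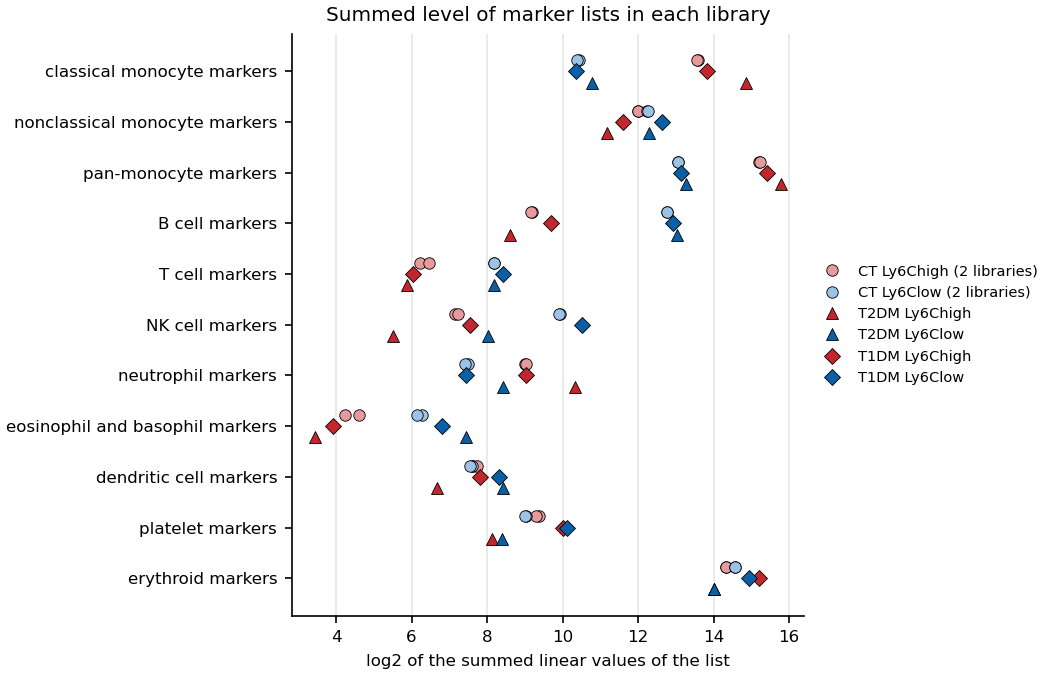
Log2 of the summed linear values (horizontal axis) of 11 marker lists (rows) in each of the 8 libraries, with circles for CT, diamonds for T1DM, triangles for T2DM, red for Ly6Chigh and blue for Ly6Clow MCs. In T1DM the sums of B and NK cell markers are 9.70 and 7.54 in Ly6Chigh MCs and 12.94 and 10.53 in Ly6Clow MCs, while the platelet sums of both T1DM libraries lie above the highest CT sum of 9.39.

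Over all genes, 1819 were past 2-fold higher and 2775 lower in T1DM Ly6Chigh MCs. The split depended on the scaling, since quantile normalization gave 2300 higher and 2165 lower, and scaling each library to the same sum of linear values gave 1200 and 3661 and moved the median difference by -0.27. Of the genes past 2-fold, 37.5% of the higher and 59.3% of the lower ones were under a level of 3 in both libraries. Among the 5237 genes with a T1DM mean level of at least 5, 551 (10.5%) were past 2-fold higher and 257 (4.91%) lower, and the lower ones reached further, with 46 past 8-fold against 26 of the higher ones.

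The CT libraries, which are independent of the T1DM ones, gave a tested comparison of the same subsets. The 2 libraries a side may be repeats of 1 pool, so the p-values may measure technical spread. With limma (Benjamini-Hochberg adjusted p under 0.01 and past 2-fold, 2 libraries a side), 346 genes (2.1%) were called higher and 235 (1.43%) lower in CT Ly6Chigh MCs. Of the 346, 293 were past 2-fold higher in T1DM, and their median difference was 1.59 in T1DM and 1.56 in CT. Of the 235, 223 were past 2-fold lower in T1DM, with medians of -3.11 and -3.14. Only 1 of the 346 and 2 of the 235 were past 2-fold the other way. These calls depended on the fit, since limma made 0 with eBayes without the trend (1075 genes higher and 1863 lower at an unadjusted p under 0.05) and 0 with the replicate number as a block (1069 and 1816), so no overlap with T1DM was left under either. Leaving out 1 CT library also gave 0 calls, but such a fit has 1 library on one side and says nothing about the stability of the calls. Across genes with a T1DM mean level of at least 5, the T1DM difference correlated with the mean CT difference at r = 0.876 and with the T2DM difference at r = 0.825. These correlations are a description across 5237 genes, which are not independent replicates.

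**Figure D3:**
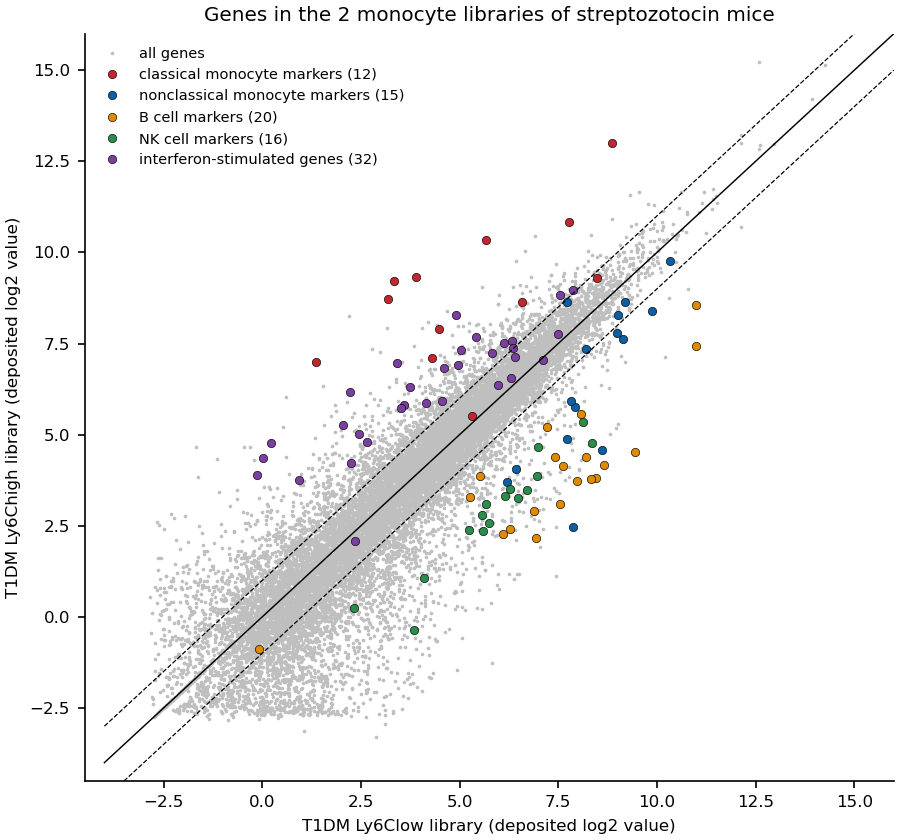
Deposited log2 value of every gene in the T1DM Ly6Clow library (horizontal axis) and the T1DM Ly6Chigh library (vertical axis), with 5 gene lists in colour, a solid line of equal level and dashed lines of 2-fold difference. Classical markers and interferon-stimulated genes lie above the lines (10 of 12 and 26 of 32 past 2-fold), and B and NK cell markers below (19 of 20 and 16 of 16).

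The 20 largest differences in each direction among genes with a mean level of at least 5 ranged from 3.41 to 6.06 and from -5.40 to -3.81. The next genes outside were Slfn5 at 3.39 and Cd55 at -3.78. On the higher side stood Cd177, a surface protein of neutrophils that anchors proteinase 3, with levels of 8.24 and 2.19. Chil3, the chitinase-like protein Ym1, had 9.32 and 3.88. Sgms2, a sphingomyelin synthase, had 7.92 and 3.16, and Plcb1, a phospholipase C, 7.36 and 2.77. Cd33, a sialic acid-binding lectin, had levels of 7.25 and 2.98, and its difference of 4.27 exceeded the CT range of 1.95 to 3.55. Slfn1, a Schlafen family gene, differed by 3.90 against 2.90 to 3.13, Msr1, a scavenger receptor, by 3.59 against 2.78 to 2.94, and Tnfaip2, a gene induced by tumour necrosis factor, by 3.46 against 2.76 to 2.97. Ifi211, at 3.88, shares 78.9% of its 31-base sequences with other genes and is uncertain. Cd93, a receptor of innate cells, differed by 3.73, Stxbp6, a syntaxin-binding protein, by 3.59, and Arhgef37, a guanine nucleotide exchange factor, by 3.47, against CT ranges of 3.36 to 3.52, 2.87 to 3.86 and 3.25 to 3.43.

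On the lower side, 7 of the 20 genes were on the B cell list. Pou2af1, the B cell coactivator OCA-B, had levels of 4.51 and 9.45, Pax5, the factor that sets B cell identity, 3.77 and 8.33, and Ms4a1, which encodes CD20, 3.82 and 8.46. Spib, Cd79a and Cd79b differed by -4.42, -4.49 and -3.83. Cxcr5, a chemokine receptor of B cells, differed by -3.92 and Cd2, an adhesion receptor of T and NK cells, by -4.13. Cd300e, an activating receptor of nonclassical MCs, had the lowest difference of the 20 with levels of 2.46 and 7.87, below its CT range of -4.10 to -3.78. Dusp16, a phosphatase that acts on JNK, had levels of 4.58 and 8.61, and its difference of -4.03 was also below the CT range of -3.06 to -2.60. Dnah12, a dynein heavy chain, stood at -4.14 against -2.04 to -1.82 in CT and -5.13 in T2DM, with levels of 2.97 and 7.11. Gimap4 and Gimap3, GTPases of lymphocytes, differed by -3.98 and -3.90, Ets1, a transcription factor of lymphocytes, by -3.81, and Ccnd2, cyclin D2, by -3.84. Ly6a, the antigen Sca-1, had levels of 3.24 and 7.29 and Cacna1e, a calcium channel subunit, 4.03 and 8.03, while Pik3c2b, a class II phosphoinositide kinase, differed by -3.98 and Ablim1, an actin-binding LIM protein, by -3.93. Ly6a shares 31.9% of its 31-base sequences with other genes, and Chil3 on the higher side 41.5%.

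Interferon-stimulated genes were higher in T1DM Ly6Chigh MCs. Interferons signal through JAK kinases to transcription factors that bind the interferon-stimulated response element (ISRE) in promoters of such genes and raise proteins that block viral replication. Of 32 genes, 26 were past 2-fold higher and none lower, with a median of 2.06 against 1.85 in CT and 0.41 in T2DM, and 12 of the 32 were among those called in CT. The promoters of 4 of these genes are printed as examples of how often and where the ISRE core can stand, from RefSeq on GRCm38.p6, 250 bases before to 50 after the gene start, 5' to 3' on the strand of the gene. Capitals mark the core GAAANNGAA on either strand, where matches that overlap run together. The windows are chr19:34583279-34583578 on the plus strand for Ifit3, chr19:34640639-34640938 on the plus strand for Ifit1, chr5:120777610-120777909 on the minus strand for Oas3 and chr5:92348840-92349139 on the minus strand for Cxcl10.
Ifit3: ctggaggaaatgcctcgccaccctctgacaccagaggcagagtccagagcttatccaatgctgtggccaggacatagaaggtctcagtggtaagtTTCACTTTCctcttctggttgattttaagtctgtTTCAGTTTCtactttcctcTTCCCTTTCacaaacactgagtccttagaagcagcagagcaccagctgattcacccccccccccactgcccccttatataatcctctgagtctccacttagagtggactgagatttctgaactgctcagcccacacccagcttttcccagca
Ifit1: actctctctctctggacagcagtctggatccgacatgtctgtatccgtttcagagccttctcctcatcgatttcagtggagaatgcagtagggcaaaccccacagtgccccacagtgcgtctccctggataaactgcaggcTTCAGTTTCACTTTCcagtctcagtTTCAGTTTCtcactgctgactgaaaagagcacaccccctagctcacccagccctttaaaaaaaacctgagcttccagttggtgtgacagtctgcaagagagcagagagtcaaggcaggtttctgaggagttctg
Oas3: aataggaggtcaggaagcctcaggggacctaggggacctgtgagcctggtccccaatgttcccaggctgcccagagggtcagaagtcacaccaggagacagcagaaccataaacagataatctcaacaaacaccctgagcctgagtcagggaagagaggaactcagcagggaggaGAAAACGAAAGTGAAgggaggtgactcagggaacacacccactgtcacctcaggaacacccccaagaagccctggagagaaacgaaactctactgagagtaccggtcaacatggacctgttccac
Cxcl10: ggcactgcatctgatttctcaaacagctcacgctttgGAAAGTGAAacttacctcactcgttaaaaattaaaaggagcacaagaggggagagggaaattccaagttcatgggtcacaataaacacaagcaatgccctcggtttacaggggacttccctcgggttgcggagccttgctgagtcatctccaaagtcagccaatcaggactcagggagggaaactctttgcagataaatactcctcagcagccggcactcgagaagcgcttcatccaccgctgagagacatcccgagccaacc

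The core stood 3 times in the windows of Ifit3 and Ifit1, where the match nearest to the start began 102 and 84 bases before it, 2 times in that of Oas3 and 1 time in that of Cxcl10. A window was found for 23 of the 32 genes, and 14 of the 23 (60.9%) held the core, against 8.57% of 27025 promoters. Among genes with a T1DM mean level of at least 5, it stood in 8.43% of 4150 promoters, in 13.4% of the 441 of genes past 2-fold higher, in 20.7% of the 82 past 4-fold higher, and in 8.16% of the 196 past 2-fold lower. Without the listed interferon genes the share among those past 2-fold higher was 12.5% of 431. Oasl1 and Oasl2, with differences of 4.54 and 3.37, had no match in their windows. Rsad2, with 0.27, had 1, and so did Ifi44, with -0.28 at low levels of 2.07 and 2.35. The core thus did not follow the difference gene by gene. A match is a run of letters and not shown to be a bound site.

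For 9 other motifs the shares in promoters of genes past 2-fold higher and past 2-fold lower were set beside those of the 4150 expressed genes. The E2F motif TTTCCCGC, known from genes of DNA replication, was in 0.454% of higher, 4.08% of lower and 1.93% of expressed genes, and in 1.11% of all 27025 promoters. The PU.1 motif GAGGAAG of myeloid and B cells was in 17.9%, 22.4%, 15.3% and 13.5% of these sets in the same order, and the AP-1 motif TGAGTCA in 3.17%, 5.10%, 3.45% and 5.17%. The C/EBP motif TTGCNNAA was in 8.62%, 8.67%, 8.41% and 10.8%, the E-box CACGTG in 8.39%, 8.16%, 10.6% and 7.24%, and the NR4A motif AAAGGTCA in 0.454%, 2.04%, 0.892% and 1.46%. The octamer ATTTGCAT, the Rel motif GGAATTTCC and the EGR motif GCGTGGGCG were each in under 2% of every set. Both strands were searched for every motif, and matches of different motifs could overlap. Among the genes past 2-fold the matches numbered from 1 to 79 promoters a motif and direction, and they are descriptions.

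Among the effectors, Ifit3 and Ifit1, which bind foreign RNA, had levels of 6.16 and 5.28 in Ly6Chigh and 2.23 and 2.06 in Ly6Clow MCs. Their differences of 3.93 and 3.22 lay above the CT ranges of 2.71 to 2.95 and 1.99 to 2.63, though Ifit3 shares 61.8% of its 31-base sequences with other genes, chiefly Ifit3b. Oas2, which makes the second messenger for RNase L, had levels of 6.97 and 3.41 and a difference of 3.56 against 2.04 to 2.91. Oasl1, an inactive relative that regulates Irf7 translation, had levels of 4.77 and 0.22 in T1DM. In CT its Ly6Chigh levels were 3.07 and 3.28 and its Ly6Clow levels 2.14 and 1.41. The T1DM Ly6Chigh level of Oasl1 was thus the highest and the T1DM Ly6Clow level the lowest of the 6 libraries, and the difference of 4.54 exceeded the CT range of 0.93 to 1.88. Mx1, a GTPase against influenza virus, had levels of 7.33 and 5.03 and Isg15, a ubiquitin-like modifier, 4.23 and 2.24, both inside their CT ranges. Bst2, tetherin, had levels of 3.74 and 0.94.

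Regulators and further members had smaller and larger differences alike. Irf7, the factor that amplifies interferon production, had levels of 6.92 and 4.97 and a difference of 1.95, below the CT range of 2.17 to 2.56. Stat2 differed by 1.38 and Irf9 by 0.73, both within their CT ranges. The sensors of cytosolic RNA were Ifih1 (MDA5) with a difference of 1.40, Dhx58 (LGP2) with 2.21 and Ddx58 (RIG-I) with 0.27. Chemokines that interferon induces, Cxcl9 and Cxcl10, had levels of 3.89 and 4.35 in Ly6Chigh and of -0.13 and 0.02 in Ly6Clow MCs, but CT ranges of -1.13 to 3.23 and 1.68 to 5.20 show how little those low levels fix the difference. Rsad2 (viperin), Isg20 (an exonuclease), Herc6 (an ISG15 ligase) and Ifi44 had T1DM differences of 0.27, -0.09, 0.37 and -0.28, all below their CT ranges. The T1DM levels of Ifi44 were low, at 2.07 and 2.35. Compared with CT, 10 of the 32 genes lay above all 4 CT differences, 10 below and 12 within. These counts are near the shares over all genes, 31.2% above and 29.8% below. The receptors Ifnar1 and Ifnar2 differed by 0.65 and 0.89 and Ifngr2 by 1.27, while Socs1, a feedback inhibitor, had low levels of -0.26 and 1.94.

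**Figure D4:**
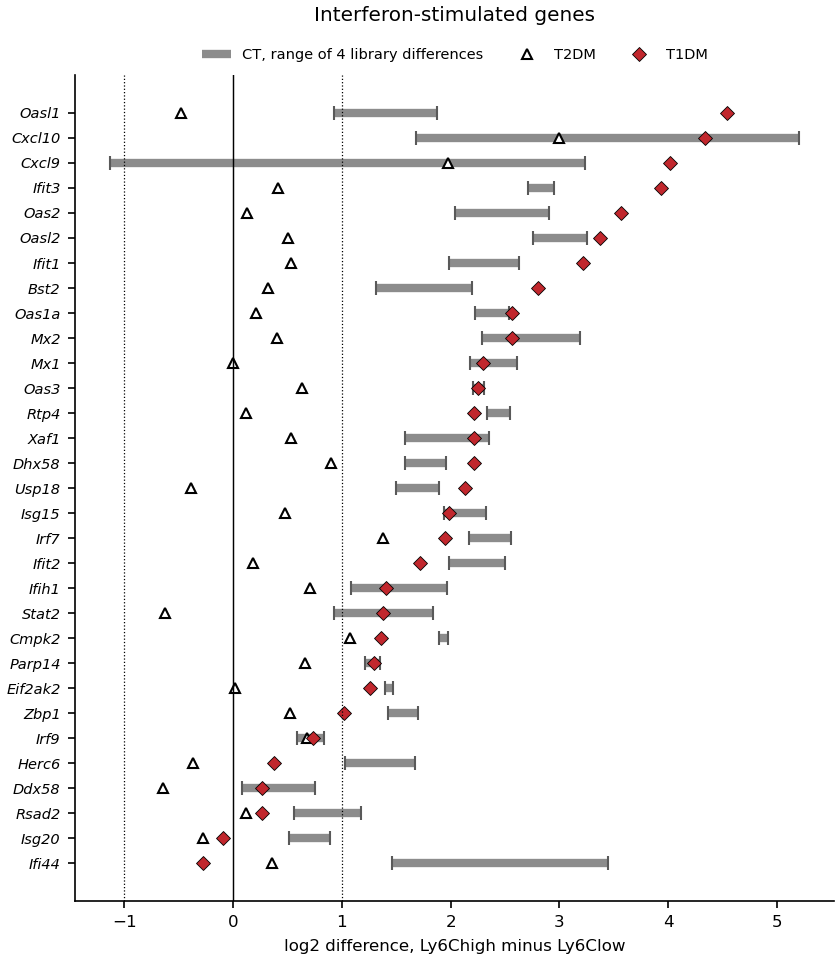
Log2 difference of Ly6Chigh minus Ly6Clow MCs (horizontal axis) for 31 of the 32 interferon-stimulated genes (rows), with T1DM as red diamonds, T2DM as open triangles and the range of the 4 CT library differences as grey bars; dotted lines mark a difference of 1 either way. The T1DM values run from -0.28 for Ifi44 to 4.54 for Oasl1, and 25 of the 31 lie beyond 1.

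Pattern recognition and inflammasome genes were mostly higher or little different. Of 24 genes of the Toll-like receptor (TLR) pathway, 8 were past 2-fold higher and 2 lower, with a median of 0.60 against 0.62 in CT. Tlr2, a receptor for bacterial lipoproteins, had levels of 6.31 and 4.79, Cd14, the endotoxin co-receptor, 4.77 and 2.83, Tlr5, the flagellin receptor, 4.38 and 0.60, and Myd88, the shared adaptor, 6.44 and 4.79. Tlr4, the endotoxin receptor, had 5.24 and 5.01, a difference of 0.23 inside a CT range of -0.31 to 0.91. Of 17 inflammasome and interleukin-1 genes, 5 were past 2-fold higher and none lower. Mefv, pyrin, had levels of 7.03 and 4.02, Nlrp3 6.20 and 4.33, Nlrp1b 5.78 and 3.87, and Il1rn, the interleukin-1 receptor antagonist, 4.74 and 3.18. Il1b itself had 5.48 and 5.38, and its difference of 0.10 lay above the CT range of -0.96 to -0.28. The executioners Casp1 and Gsdmd differed by 0.43 and 0.45.

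Granule and lectin genes were mostly higher in Ly6Chigh MCs, while Fc receptor and complement genes differed both ways. Of 16 granule and antimicrobial genes, 14 were past 2-fold higher and none lower, with a median of 2.74 against 1.31 in CT, though 8 of the 16 were under a level of 3 in both libraries. Clec5a, an activating lectin, had levels of 4.31 and -0.21, Clec7a, the beta-glucan receptor Dectin-1, 8.07 and 5.24, and Clec4a2, an inhibitory lectin, 5.82 and 2.63. Of 18 scavenger receptors and lectins, 8 were past 2-fold higher and 1 lower. The lower one was Cd36, a receptor for oxidized lipids, with levels of 4.91 and 7.88. Of 18 Fc receptor and complement genes, 5 were past 2-fold higher and 6 lower, with a median of 0.18 against 0.28 in CT and 0.93 in T2DM. The lower ones included the C1q chains given above and Cd55, an inhibitor of complement on cell surfaces, with levels of 4.30 and 8.08. C3, the central complement component, had levels of 10.44 and 6.92, and its difference of 3.51 lay above the CT range of 2.88 to 3.14. Among IgG receptors, Fcgr3 had levels of 8.15 and 6.21, and Fcgr4, typical of nonclassical MCs, 4.07 and 6.43. C5ar2, the second C5a receptor, had levels of -2.26 and 2.74, while its 4 CT levels ran from 2.45 to 2.97, so the T1DM Ly6Chigh level lay far under all of them, at a level too low to carry weight. Of 13 CD300 and TREM receptors, 3 were past 2-fold higher and 4 lower. Trem2, a lipid-sensing receptor, had levels of 5.48 and 2.26, Cd300lg 6.33 and 3.65, Cd300ld 5.91 and 8.16, and Trem1, which amplifies inflammation, 1.34 and 3.85.

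Of 13 genes of the oxidative burst and nitric oxide list, 3 were past 2-fold higher and none lower, with a median of 0.70 against 0.61 in CT. Among subunits of the phagocyte NADPH oxidase, Cybb differed by 1.06, Cyba by 0.92, Ncf1 by 0.88 and Ncf4 by 0.26, and the GTPase Rac2 that activates it by -0.33. Hmox1, heme oxygenase, differed by 1.15. Of 12 coagulation and fibrinolysis genes, 6 were past 2-fold higher and 1 lower. F10, coagulation factor X, had levels of 6.81 and 4.39 and Plaur, the urokinase receptor, 7.25 and 6.03. Serpinb2, an inhibitor of urokinase, had 4.11 and 2.55, a difference of 1.56, while in CT it was lower in Ly6Chigh MCs in all 4 pairings, by -1.89 to -0.86. Of 13 cathepsins and cystatins, 5 were past 2-fold higher, among them Ctsc, which activates granule proteases, at 1.74. The 2 lower ones, Ctsw and Cst7, at -3.38 and -2.17, are known from NK and cytotoxic T cells.

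Chemokine receptors were more often lower than higher. Of 15 chemokine receptors, 2 were past 2-fold higher and 7 lower. Ccr2 was described above and Ccr1, a receptor for inflammatory chemokines, had levels of 3.64 and 2.59. Ccr7, known from lymphocytes, differed by -3.28, and Cxcr4 by -0.40. Ccr6 and Cxcr3, also known from lymphocytes, had low levels of 0.09 and 2.64 and of 0.46 and 2.81. Their differences of -2.55 and -2.35 carry little weight. Of 20 integrins and selectin ligands, 2 were past 2-fold higher and 6 lower. Itga1, the alpha-1 chain of a collagen receptor, had levels of 6.99 and 3.55 and Itga5, the alpha chain of the fibronectin receptor, 7.18 and 4.51, with a difference of 2.67 above the CT range of 1.56 to 1.89. Itgax, which encodes CD11c, had 4.87 and 7.71. Itgal, the alpha chain of LFA-1, had 9.76 and 10.32, a difference of -0.55 against 0.21 to 0.29 in CT. Itgam, which encodes the CD11b used in the gate, had 10.66 and 9.90, but 68.1% of its 31-base sequences also stand in other genes, chiefly Gm49368.

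Cytokine genes differed both ways. Of 38 cytokine and chemokine ligands, 11 were past 2-fold higher and 10 lower, and 15 were under a level of 3 in both libraries. Tnfsf13 (APRIL), a B cell survival factor, had levels of 5.66 and 3.17, though 58.4% of its 31-base sequences also stand in other genes. Tgfb1, transforming growth factor beta 1, had 8.31 and 6.81, a difference above its CT range of 1.02 to 1.22, and Ccl6 and Ccl9, chemokines of mouse myeloid cells, differed by 1.61 and 1.95. Ccl5, known from T and NK cells, had 3.78 and 6.80, and Ltb, lymphotoxin beta, 0.46 and 3.85. Tnf had 3.08 and 3.95, a difference of -0.87 against -0.32 to -0.19 in CT. Of 40 cytokine receptors, 10 were past 2-fold higher and 11 lower. Higher ones included Il6ra, the interleukin-6 receptor, with levels of 9.86 and 8.48, Acvr1, an activin receptor, with 4.37 and 2.24, and Fas with 4.59 and 3.21. Lower ones included Il2rb, shared by the interleukin-2 and interleukin-15 receptors and used by NK cells, with 4.76 and 8.36, Il9r with 0.22 and 5.57, and Il18r1 with 3.52 and 6.34.

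Checkpoint receptors were mostly lower in Ly6Chigh MCs. Of 20 such genes, 14 were past 2-fold lower and 1 higher, with a median of -1.73 against -0.93 in CT and -1.31 in T2DM. Among the 13 that reached a level of 3 in either T1DM library, 9 were lower and none higher. Some of the 9, such as Ctla4, Tnfrsf9 and Cd28, reached it only in the Ly6Clow library, so this count is a description and no support. The T1DM difference lay below all 4 CT differences for 14 of the 20, against 29.8% over all genes. Ctla4 had levels of 0.28 and 5.06, Tnfrsf9 (4-1BB) -0.23 and 3.72, Cd28 2.14 and 4.59, and Btla, an inhibitory receptor of lymphocytes, 6.30 and 7.34. Havcr2 (TIM-3), which myeloid cells carry too, had 5.61 and 6.90, and its difference of -1.29 lay below the CT range of -0.31 to -0.14. The lymphocyte marker sums given above were lower in the same library, and their part was not tested. Of 17 checkpoint ligands, 5 were past 2-fold higher and 2 lower. Cd274 (PD-L1) had levels of 3.96 and 7.03 and Pdcd1lg2 (PD-L2) -0.25 and 4.06. Vsir (VISTA) had 8.68 and 6.86, Lgals9 (galectin-9) 7.30 and 5.41, and Sema4a 7.61 and 6.41. Cd80 and Cd86, which engage CD28 and CTLA-4, had differences of -0.06 and -0.26.

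Antigen presentation differed between the classes. Of 13 genes of MHC class II presentation, 8 were past 2-fold lower and 2 higher, with a median of -1.55 against -1.72 in CT and -3.81 in T2DM. H2-Aa and H2-Ab1, the chains of I-A, had levels of 8.98 and 8.75 in Ly6Chigh and 10.79 and 10.30 in Ly6Clow MCs, with differences of -1.81 and -1.55 next to CT ranges of -1.80 to -1.73 and -1.76 to -1.69. H2-Oa and H2-Ob, the B cell modulators of peptide loading, had -3.84 and -3.47. Ctss, which cuts the invariant chain, and Ifi30, a lysosomal reductase, were the 2 higher ones at 1.32 and 1.43. The class I list had 2 of 18 past 2-fold lower and none higher. These were H2-Q6 and H2-Q7, nonclassical class I genes, with levels of 4.11 and 7.78 and of 6.28 and 8.79. H2-Q6 shares 50.3% and H2-Q7 39.1% of the 31-base sequences with other genes. B2m, the common light chain, had 11.37 and 11.51, and H2-D1, a classical class I heavy chain that shares 26.7% of its 31-base sequences, 10.49 and 10.52.

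Transcription factors differed in both directions. Of 36 listed, 10 were past 2-fold higher and 10 lower. Cebpa, the factor of granulocyte and MC commitment, had levels of 6.51 and 3.40, Cebpd 5.53 and 3.06, Maf 5.72 and 3.70, and Irf5, a factor of inflammatory gene expression, 7.99 and 6.90. The Cebpa difference of 3.12 lay above the CT range of 2.46 to 2.80. Pparg, a nuclear receptor for lipids, had 2.37 and 5.84, a difference of -3.47 below the CT range of -1.90 to -1.63. Myc had 2.49 and 6.69, Mef2c 7.40 and 8.77, and Tbx21 (T-bet), which NK cells need, -0.35 and 3.84. Spi1 (PU.1) differed by 0.92 and Irf8 by 0.67. The early growth response genes Egr1 and Egr2 differed in the other direction than in CT. Egr1 had levels of 3.14 and 5.03 and Egr2 of -0.15 and 3.13, so both were lower in T1DM Ly6Chigh MCs, while in CT both were higher in Ly6Chigh MCs in all 4 pairings, by 0.16 to 0.65 and 0.62 to 0.80. Egr3 had -1.80 and 3.60 and was lower in CT too. Of 16 immediate-early genes, 2 were past 2-fold higher and 4 lower. Fos had levels of 6.80 and 4.34 and Jun 3.19 and 5.02. The heat shock gene Hspa1a had 2.28 and 3.77, against a higher Ly6Chigh level in CT by 0.43 to 0.51, and 65.4% of its 31-base sequences stand elsewhere, chiefly in Hspa1b.

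Respiratory chain genes showed small differences over many members. Of 71 nuclear-encoded subunits of the respiratory chain and ATP synthase, 18 were past 2-fold higher and none lower, with a median of 0.79 against 0.57 in CT and 0.96 in T2DM, and 70 of the 71 differences were positive. Cox6c, a cytochrome oxidase subunit, had levels of 6.60 and 5.15 and Ndufb8, of complex I, 5.30 and 4.03. The 12 mitochondrially encoded genes were all under 2-fold, from -0.54 to 0.38. Cytosolic ribosomal proteins had a median of 0.42 against -0.15 in CT and 0.37 in T2DM. Of the 86, 79 lay above all 4 CT differences, against 31.2% over all genes. Only 5 were past 2-fold higher and 1 lower, and many share sequence with pseudogenes. Scaling to equal sums lowers each of these T1DM medians by the 0.27 given above, and the CT and T2DM medians by other amounts. The T2DM medians fall by more, since the T2DM linear sums of 1090019 and 848481 lie further apart than the T1DM sums of 1056360 and 878313. Glucose genes had 3 of 24 past 2-fold higher, namely Hk2 (hexokinase 2) at 1.15, Pkm (pyruvate kinase, 34.7% of sequence shared) at 1.04 and Insr (insulin receptor) at 1.06, and 1 lower, Foxo1, a factor that insulin signalling restrains, at -1.11. Hk2 lay below its CT range of 1.57 to 2.10.

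Lipid and xenobiotic genes differed member by member. Of 20 lipid genes, 3 were past 2-fold higher and 6 lower. Abca1, the cholesterol exporter, had levels of 4.63 and 6.73, and Fabp4, a fatty acid carrier, 1.52 and 5.57. Pltp, the phospholipid transfer protein, had 5.47 and 6.99. Of 15 xenobiotic genes, 6 were past 2-fold higher and 2 lower. Ahr, the aryl hydrocarbon receptor, had levels of 7.99 and 5.08, Mgst1, a microsomal glutathione transferase, 7.10 and 4.30, and Gstm1, a cytosolic one, 7.31 and 4.99. Their differences of 2.91, 2.80 and 2.33 lay above the CT ranges of 2.60 to 2.81, 2.46 to 2.70 and 1.20 to 1.88, and Gstm1 shares 28.8% of its 31-base sequences with other genes.

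Cell cycle genes were lower or under 2-fold in Ly6Chigh MCs. Of 27, 12 were past 2-fold lower and none higher, with a median of -0.95 against -0.59 in CT, and 11 were under a level of 3 in both libraries. Top2a, a topoisomerase of dividing cells, had levels of 2.64 and 5.33, a difference of -2.69 against -0.36 to 0.12 in CT. Mcm6, of the replicative helicase, had 3.21 and 5.21 and Mki67, the proliferation antigen, 5.74 and 6.66. Of 15 BCL2 family genes, 2 were past 2-fold higher and 4 lower. Bcl2, which blocks apoptosis, had levels of 5.28 and 7.93. Bcl2a1a, Bcl2a1b and Bcl2a1d, near-identical protective genes that share 79.6% to 89.1% of their 31-base sequences, were all past 2-fold lower, with levels of -0.06 and 4.26 for Bcl2a1a and 2.83 and 5.83 for Bcl2a1d and a difference of -3.11 for Bcl2a1b. The apoptosis effector Bax differed by 1.15. Of 25 genes of lymphocyte receptor and NFAT signalling, 12 were past 2-fold lower and 1 higher. Blnk, an adaptor of B cell receptor signalling, had levels of 2.64 and 7.02, and Orai1, a calcium channel subunit, was the higher one at 1.28. Plcg1, a phospholipase of receptor signalling, had 2.56 and 4.61, a difference of -2.05, while in CT it was higher in Ly6Chigh MCs by 0.19 to 1.15.

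A rule picked the genes whose T1DM difference stood furthest from the other mice. Among 5228 genes with a mean level of at least 5 over the 8 libraries, it took those whose T1DM difference lay more than 1 above, or more than 1 below, all 4 CT differences and the T2DM difference. It found 4 genes above and 13 below, which are a description of the rule and not a test. The same rule with T2DM in the place of T1DM found 20 and 70. The last genes inside were Fam78a, 1.12 above the nearest other value, and AU040320, 1.01 below it, and the first outside were Dusp7 at 0.97 and Zbtb18 at 0.97.

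Above the other mice were Cd22, an inhibitory receptor of B cells, Scd1, a fatty acid desaturase, Fam78a and Gm10800. Cd22 had T1DM levels of 5.21 and 7.21, a difference of -2.01 against -3.93 to -3.43 in CT and -5.38 in T2DM. Scd1 had 4.71 and 8.29, -3.58 against -4.84 to -4.75 and -5.58. Both were still lower in Ly6Chigh MCs, by less than in the other mice. Fam78a had 5.88 and 4.40, 1.48 against -0.20 to 0.37 and -0.41. Gm10800 had 0.96 against -1.69 to -1.63, and 42.0% of its 31-base sequences stand in other genes.

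Below the other mice, Lyz1, a lysozyme gene, had levels of 5.83 and 6.43, a difference of -0.60 against 1.28 to 1.44 in CT and 1.32 in T2DM. Its T1DM Ly6Chigh level was near the CT levels of 5.96 and 5.88, and its T1DM Ly6Clow level was above the CT levels of 4.60 and 4.53. Lyz1 shares 34.2% of its 31-base sequences with other genes, chiefly Lyz2. Itpr3, a calcium channel of the endoplasmic reticulum, had 2.86 and 6.61, a difference of -3.75 against -2.14 to -1.94 and -0.44. Here the T1DM Ly6Clow level was like the CT Ly6Clow levels of 6.62 and 6.54, and the T1DM Ly6Chigh level was under the CT levels of 4.59 and 4.48. H2-Q6, described above, was also in this set. Atxn1, a transcriptional repressor, differed by -2.93 against -1.65 to -1.59, L1cam, an adhesion molecule, by -2.58 against -1.25 to -1.17, and Usp36, a deubiquitinase of the nucleolus, by -1.37, below a CT range whose upper end was 0.24. Ggta1, the enzyme that makes the alpha-gal epitope, had -0.99 against 0.31 to 0.38, Cherp, a calcium homeostasis protein, -0.69 against 0.52 to 0.64, and Gm49369, which shares 94.6% of its sequence with Ctsd and others, -0.98 against 0.19 to 0.64. Lair1, an inhibitory collagen receptor, Cmklr1, the chemerin receptor, and AU040320 were members too, and Lair1 had levels of 5.90 and 7.81.

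**Figure D5:**
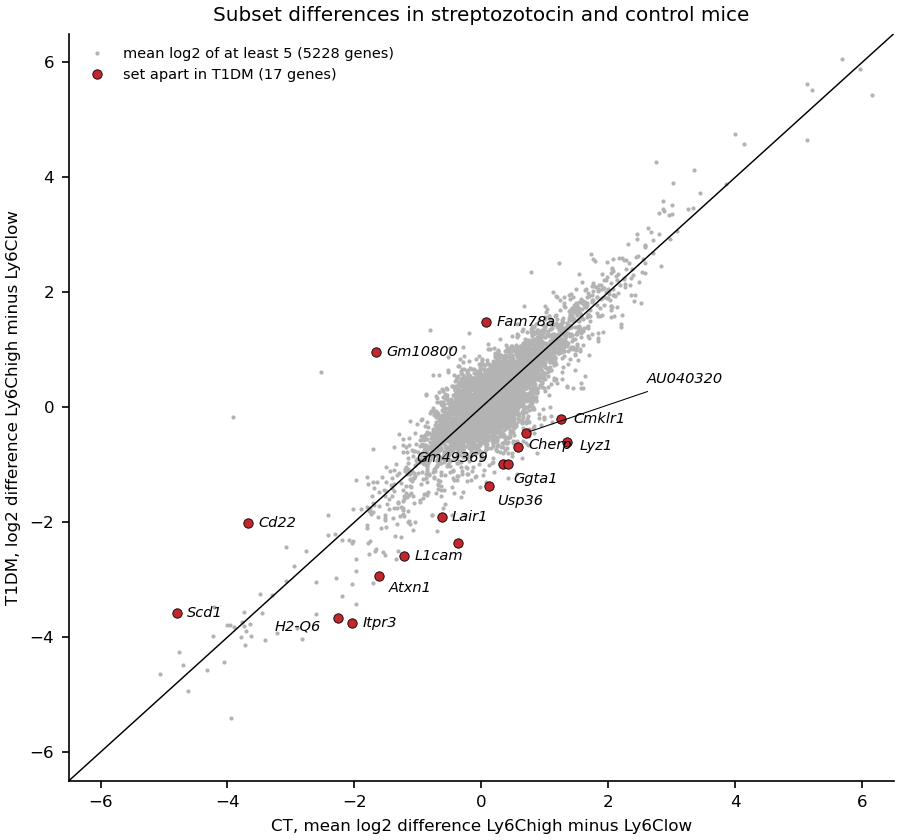
Mean CT difference of Ly6Chigh minus Ly6Clow MCs (horizontal axis) against the T1DM difference (vertical axis), both in log2 units, for 5228 genes with a mean level of at least 5, with a line of equality and the 17 genes that the rule set apart in red, all but 1 of them named. Most genes follow the line (r = 0.876 over 5237 genes with a T1DM mean of at least 5), 13 red genes lie below it and 4 above.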

How the data were processed

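Bulk RNA-Seq of sorted blood MCs was analysed for 8 libraries. The submitters' processing notes name Kallisto 0.45, tximport 1.12.3, R 3.6.1 and mm10; the authors pseudoaligned reads and summed them by gene. The log2 values that the authors deposited cover 16486 entries and reach 15.6, and all 8 value columns were used. Their scaling and any filter are not given in the sources used here. They hold no counts, so depth per value is unknown and no interval or floor is given. Both T1DM libraries had the same value in 181 genes, such as -2.54 for Wfdc21 and -2.42 for Tnfsf4. How far differences that reach such levels depend on a floor was not tested. Linear sums ran from 838696 to 1090019. Same-numbered CT libraries did not vary together.

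Differences were computed from the values as deposited. CT Ly6Chigh and Ly6Clow MCs (2 libraries each, sequenced in duplicate from pooled RNA, so p-values measure a spread that may be technical) were compared with limma 3.58.1 (lmFit, eBayes with trend) in R 4.3.3, with Benjamini-Hochberg adjusted p under 0.01 and past 2-fold called. The fit was checked on simulated data whose spread followed mean level, as the trend assumes. That check cannot show whether calls that need the trend are sound. T1DM and T2DM have no test. Genes named were members of the lists, the 20 largest differences per direction with a T1DM mean of at least 5, at most 10 set-apart genes per direction, Ly6c1 and Ly6c2, and a few others near these named after their values were seen (Slfn5, Cd55, Dusp7, Zbtb18, Cmklr1, Lair1, AU040320). Some genes are not reported here. The 21 symbols turned into dates were counted and not named. The lists and rules were chosen with earlier results of these data known. Shared 31-base sequences came from GENCODE M21 transcripts, and promoters from RefSeq on GRCm38.p6, matched by symbol for 11654 genes, with the first listed window used. Python 3.11.15, numpy 2.4.6, pandas 2.3.3 and matplotlib 3.10.9 were used. Alternatives were a low-value filter (mean of at least 1), 1 added on the linear scale, quantile normalization, equal sums of linear values, other limits, no trend, the block, and leaving out each CT library.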

Additional observations from a re-analysis of the deposited data

Results flagged for a closer look

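In 6 of the 825 genes eligible for naming, the T1DM libraries differed past 2-fold in one direction, all 4 CT library differences pointed the other way, and the higher T1DM level was at least 3. The difference between T1DM and CT was not tested in any of them, since T1DM has 1 library a side. All but Egr1 reached a level of 3 in only 1 of the T1DM libraries. The CT levels of S100a9, Egr2 and Hspa1a were all under 3, so their direction in CT carries little weight. Among genes with a mean level from 1 to 3, the CT Ly6Chigh replicates differed by more than 1 for 18.4%. S100a9, a calprotectin subunit of neutrophils, had a difference of 3.52 against -1.82 to -0.95 in CT. Serpinb2, an inhibitor of urokinase, had 1.56 against -1.89 to -0.86. Egr1 and Egr2, early growth response factors, had -1.88 and -3.28 against 0.16 to 0.65 and 0.62 to 0.80. Plcg1, a phospholipase of receptor signalling, had -2.05 against 0.19 to 1.15, and Hspa1a, a heat shock gene, had -1.49 against 0.43 to 0.51. Over all genes, 63 met the same condition, and 293 without the minimum of the higher level. The T2DM difference had the sign of the T1DM one in 5 of the 6, and that of Hspa1a was 2.77. It was under 2-fold for S100a9, Serpinb2 and Egr1, at 0.84, 0.28 and -0.12. For Egr2 and Plcg1 it was -1.26 and -1.055.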

How the results depend on the processing

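The T1DM libraries have no replicate, no counts and no stated scaling, so a difference carries an unknown error, least for genes of high level. Every list median kept its sign under all 4 alternatives, except those of platelet and erythroid markers, cytokine receptors, MHC class I, transcription factors, mitochondrially encoded genes (quantile normalization and equal sums), integrins and cytokine ligands (low-value filter) and Fc receptors and complement (equal sums), all between -0.09 and 0.18 as reported. No named gene past 2-fold reversed, but many changed in size. Of the 825 genes eligible for naming, 641 moved with equal sums, 283 with quantile normalization and 101 with 1 added on the linear scale. A gene counted as moved where it changed by at least the SD of the CT Ly6Chigh libraries, or a fixed minimum where that SD was smaller. Adding 1 on the linear scale moved 1 list median by over 0.5, that of eosinophil and basophil markers, from -3.51 to -1.97.

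Genes past 2-fold higher numbered 1819 as reported, 1200 with equal sums of linear values and 1137 where the higher level was at least 3, an alternative chosen after seeing the data. Genes past 2-fold lower numbered 2775 as reported, 1447 with the low-value filter, 1806 with 1 added on the linear scale and 1130 where the higher level was at least 3. Set-apart genes numbered 4 above and 13 below as reported, 56 and 126 with a margin of 0.5, and 38 and 50 with a level minimum of 3.

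CT calls by limma numbered 346 higher and 235 lower, with 516 of them past 2-fold the same way in T1DM. The low-value filter gave 619, 470 and 932, and an adjusted p limit of 0.05 gave 834, 1102 and 1452. Equal sums gave 207 higher and 360 lower. eBayes without the trend gave 0 in all 3 counts, with 1075 higher and 1863 lower at an unadjusted p under 0.05 and 1751 at an adjusted p under 0.05. Leaving out 1 CT library gave from 0 to 0 in all 3, with 1027 to 1098 higher and 1395 to 2090 lower at an unadjusted p under 0.05, in fits with 1 library on one side that say nothing about stability. With the replicate number as a block, limma called 0, 0 and 0, with 1069 higher and 1816 lower at an unadjusted p under 0.05 and 972 at an adjusted p under 0.05. The deviations of same-numbered CT libraries correlated at 0.009 over all genes and at 0.077 over genes with a mean level of at least 5. The subsets of a group may come from the same mice. If the libraries of a subset are repeats of 1 pool, these deviations cannot show whether the subsets are paired. The block result is thus no sign of pairing either way.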
